A study of Homo sapiens with 24 samples.

Results

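The effect of proton dose was measured as the difference in gene expression between U87 MG cells that received 10 Gy and cells that received 2 Gy of proton therapy (PT). U87 MG is an established human glioblastoma line, and RNA was taken 24 h after irradiation. On every array of PT alone, Cy5 carried RNA of irradiated cells and Cy3 carried RNA of untreated cells, with no dye swap. The members were the scans of PT alone, without the SRC inhibitor Si306, and they made up 10 of the 24 scans of the series. These scans came from 4 of its 8 arrays, 2 for U87 2 Gy and 2 for U87 10 Gy, and repeat scans of an array were averaged into 1 value. The scans labelled U87 2 Gy replicate 5 and U87 10 Gy replicate 2 were left out, because the array named in their header carries the other dose in its remaining scans.

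A log2 ratio below is the log2 of Cy5 over Cy3 for a gene, and a difference is the log2 ratio at 10 Gy minus that at 2 Gy. In Cy3, the share of probes with a signal well above background ran from 60.6% to 62.5% over the 2 Gy scans and from 63.4% to 65.5% over the 10 Gy scans. The corresponding shares in Cy5 were 65.0% to 68.8% and 69.2% to 73.9%. The 4 arrays lay on 1 slide, and each dose had its own positions there, so that position and dose cannot be told apart. It is not known if the arrays of a dose carry separate cultures, and the p-values then measure only the spread between arrays. Precision is limited by the number of arrays.

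The line was checked against markers of its own and of other cell types. Of 20 glial, neural stem and mesenchymal markers, 16 were well above background in both channels on all 4 arrays, among them GFAP, NES, VIM, CD44 and CHI3L1. S100B and PROM1 were above it on none, and SOX2 only in Cy5 of 1 array. The leukocyte markers PTPRC, CD3D, MS4A1 and LYZ were above background on none of the arrays, while 3 of 9 leukocyte markers were above it in both channels on all 4. For endothelial markers this number was 0 of 6, for epithelial markers 3 of 6 (KRT8, KRT18 and KRT19), and for neuron markers 5 of the 5 on the array. Between the doses, MAP2 (-0.30) and KRT8 (-0.19) were the markers of other cell types that differed, among 21 tested. For MAP2, Cy3 was higher by 0.15 and Cy5 differed by -0.15. The difference of KRT8 was -0.05 on its other probe. In Cy5 intensity alone the difference turned to 0.09 and was not called, and the call of KRT8 was lost in 13 more of the 27 alternatives. EPCAM gained a call in 5, ITGAM in 3 and TEK in 2 of 26 alternatives. The median difference of the endothelial markers, 0.06, became 0.28 with the scanner's log ratio, 0.13 with median centring and 0.0032 with Cy5 alone. For the epithelial markers the median of -0.08 turned to 0.09 with Cy5 alone and to 0.0099 with median centring. The part of other cell types in the values below was not tested.

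Damaged DNA sets off a transcriptional program, here the damage response genes, whose products stop the cell cycle, repair DNA or start apoptosis, and some of which switch the signal off again. Immediate early genes such as FOS and EGR1 are transcribed within minutes of a growth or stress signal through serum response factor, and mitotic genes are transcribed mainly in the G2 phase of the cell cycle.

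Of 21699 tested genes, 4531 differed between the doses at an adjusted p under 0.05 in limma. Of these, 2128 (9.81% of the tested genes) were higher and 2403 (11.1%) were lower at 10 Gy. A difference of at least 0.25 was reached by 978 (4.51%) of the higher and 1052 (4.85%) of the lower genes. Differences of at least 1 were rare, with 7 genes higher and 3 lower. The SD over all tested genes of the difference between 2 single arrays was 0.166 to 0.179 for an array of each dose, 0.112 for the arrays of 2 Gy and 0.0841 for those of 10 Gy. For 14444 genes (66.6%) the 95% interval of the difference lay inside -0.25 to 0.25. Median centring of the arrays in place of loess called 3481 genes, of which 30.8% were higher at 10 Gy, against 47.0% with loess, and a difference of at least 0.25 was then reached by 933 higher and 2124 lower genes. With the disputed scans kept under their labels, limma called 0 genes, with 322 at an unadjusted p under 0.05, and without both arrays that hold such a scan it called 2113, with 1 array left for each dose and the spread taken from the arrays with Si306.

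**Figure D1:**
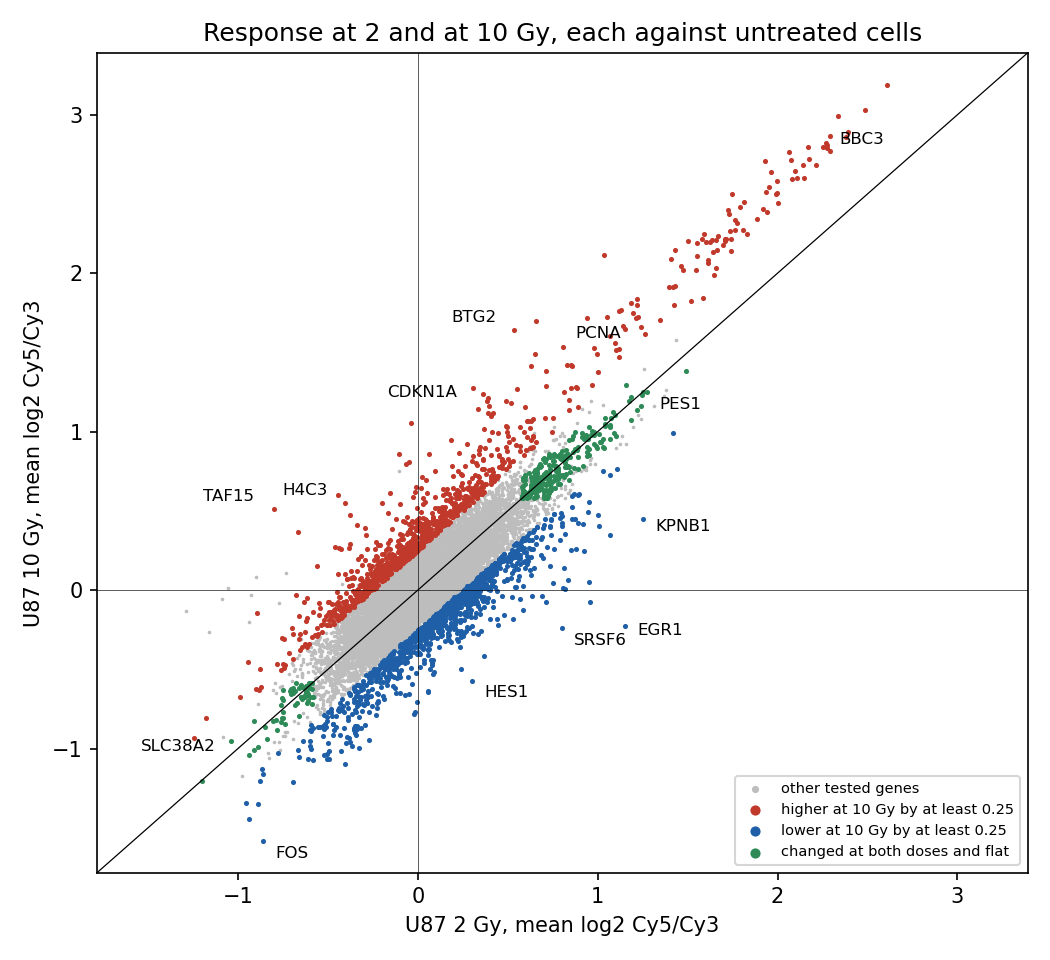
Mean log2 ratio (Cy5/Cy3) of every tested gene at 2 Gy (horizontal axis) and at 10 Gy (vertical axis), with the line of equal values. Red and blue points differed by at least 0.25 at an adjusted p under 0.05, green points are the 288 genes changed at both doses and flat between them, and EGR1, SRSF6 and TAF15 lie in the quadrants where the sign turns.

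Damage response genes had the highest median differences of the lists examined. BTG2, an antiproliferative protein, had log2 ratios of 0.48 and 0.58 on the 2 Gy arrays and of 1.72 and 1.56 on the 10 Gy arrays. The difference was 1.11 (SE 0.06, adjusted p = 6.2e-06 in limma). CDKN1A, which encodes the cyclin-dependent kinase inhibitor p21, had 0.39 and 0.38 at 2 Gy and 1.19 and 1.21 at 10 Gy. Its difference was 0.81 (SE 0.04, limma adjusted p = 3.66e-06), and its other probe gave 0.66. PPM1D, a phosphatase that turns the damage signal off, had 0.43 and 0.35 at 2 Gy and 1.24 and 1.18 at 10 Gy. It differed by 0.82 (SE 0.05, limma adjusted p = 6.53e-06). GDF15, a secreted member of the TGF-beta family, had 0.33 and 0.29 at 2 Gy and 1.27 and 1.28 at 10 Gy. Part of its difference of 0.97 came with the untreated channel, which was lower on the 10 Gy arrays (-0.33), while Cy5 was higher by 0.64. SESN1, a stress-induced inhibitor of mTORC1 signaling, rose from a mean of 0.18 to 0.95.

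Of all tested genes, 9.81% were higher and 11.1% lower at 10 Gy, and the counts of each list below stand beside these shares. Of 13 tested damage response genes for arrest and feedback, 12 were higher and 1 was lower at 10 Gy. Their median log2 ratio was 0.31 at 2 Gy and 0.88 at 10 Gy, and their median difference was 0.54, against -0.01 over all tested genes. The gene that was lower was PLK2, a polo-like kinase (-0.16). MDM2, a ubiquitin ligase of the feedback, lay below untreated cells at 2 Gy (-0.23 and -0.19) and above them at 10 Gy (0.14 and 0.07), a difference of 0.32 (SE 0.06, limma adjusted p = 0.00307) and of 0.21 on its other probe. CCNG1 and ZMAT3 turned from negative to positive log2 ratios in the same way, from -0.17 to 0.12 and from -0.32 to 0.21.

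Of 11 damage response genes linked to cell death, 10 were higher at 10 Gy, 0 were lower and 1 was not called. Their median difference was 0.36. The death receptor FAS had 0.43 and 0.38 at 2 Gy and 1.11 and 1.09 at 10 Gy, a difference of 0.69 (SE 0.04, limma adjusted p = 1.09e-05). BAX, which opens the outer mitochondrial membrane, went from -0.22 to 0.16, with differences of 0.24 to 0.57 on its other probes. BBC3, which encodes PUMA, had the highest log2 ratios of the list at both doses, 2.28 and 2.79, on a GC-rich probe, and its other probes gave differences between 0.08 and 0.89. AEN, a nuclease, was not called (0.05). Of 12 damage response genes for repair and metabolism, 8 were higher, 0 lower and 4 not called, with a median of 0.31. FDXR, a mitochondrial reductase, was the highest of them (0.56), followed by RRM2B, a ribonucleotide reductase subunit (0.44), and DDB2, which recognizes ultraviolet damage (0.40). In Cy5 FDXR, RRM2B and DDB2 differed by 0.83, 0.50 and 0.69, and in Cy3 by 0.28, 0.06 and 0.29. TNFAIP8 had 0.26 at each dose.

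**Figure D2:**
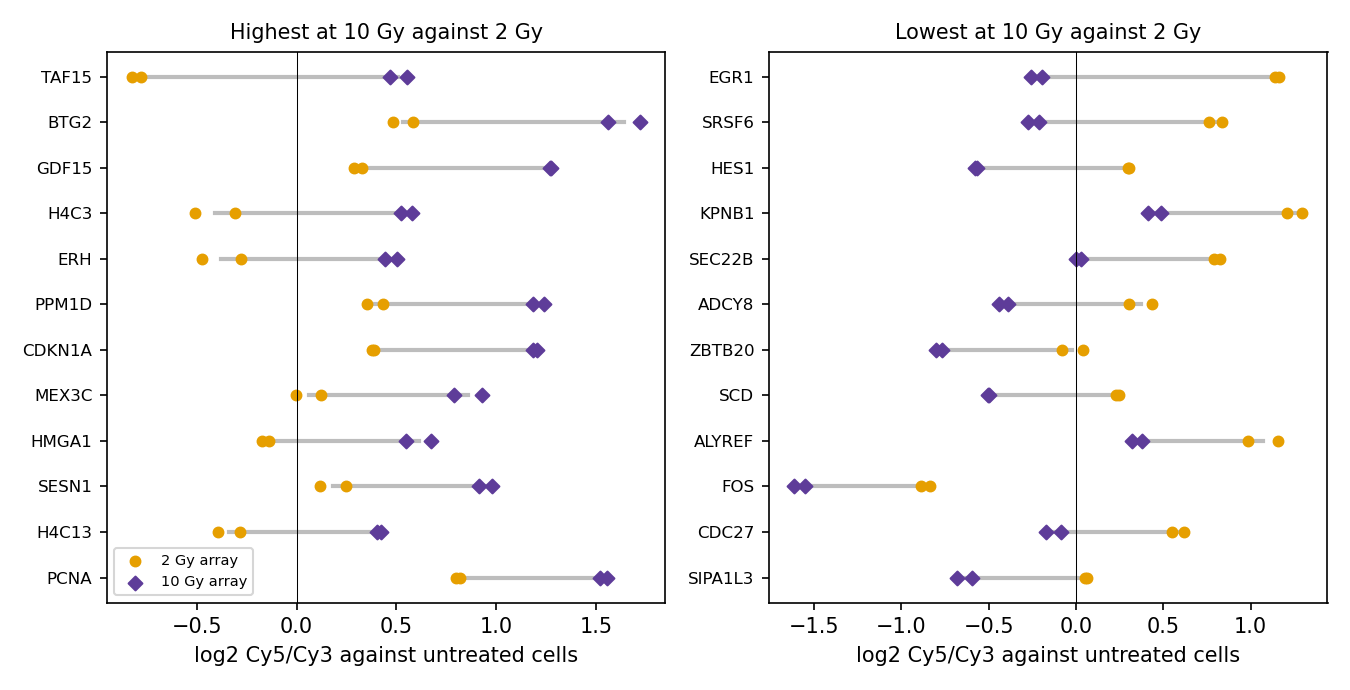
Log2 ratio on each array of the 12 genes with the highest and the 12 with the lowest difference (circles 2 Gy, diamonds 10 Gy, a grey bar between the means). They were taken from genes on probes under 60% GC, with an official symbol and well above background in both channels. Among others, TAF15, H4C3 and ERH cross 0 on the left and EGR1, SRSF6 and HES1 on the right. The arrays of the doses do not overlap for any of the 24 genes, as the rule that chose them requires. Of all 21699 tested genes, 5897 were higher and 6615 lower at 10 Gy without overlap.

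Outside the damage response lists, the highest difference belonged to TAF15, an RNA-binding protein of the FET family. Its log2 ratio was -0.78 and -0.82 at 2 Gy and 0.55 and 0.47 at 10 Gy, and the difference was 1.31 (SE 0.05, limma adjusted p = 6.54e-07). The whole of it lay in Cy5 (1.31), with 0.00 in Cy3. ERH, a small nuclear protein with a role in mRNA processing, had -0.38 at 2 Gy and 0.47 at 10 Gy. HMGA1, an architectural chromatin protein, had -0.16 and 0.61, and MEX3C, an RNA-binding ubiquitin ligase, had 0.06 and 0.86, with a difference of 0.23 on its other probe. The list of histone genes, which counts H2AX among its lower members, was split, with 5 of 19 higher (26.3%), 5 lower (26.3%) and 9 not called. Its median difference of -0.02 turned to 0.03 with median centring and to 0.05 in Cy5 alone. H4C3, 1 of the genes for histone H4, went from -0.41 to 0.55 and H2BC5 from -0.10 to 0.54, with a difference of 0.14 on its other probe. H4C13, not on that list, went from -0.34 to 0.41. H2AX, which marks double-strand breaks when phosphorylated, had a difference of -0.47, but Cy3 was higher by 0.43 on the 10 Gy arrays and Cy5 differed by -0.04.

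DNA replication and S-phase genes were higher at 10 Gy in 16 of 35 cases, lower in 1 and not called in 18, with a median of 0.11. PCNA, the sliding clamp of DNA polymerases, had 0.82 and 0.80 at 2 Gy and 1.55 and 1.52 at 10 Gy, a difference of 0.73 (SE 0.04, limma adjusted p = 6.53e-06). Thymidylate synthase (TYMS) had the next highest difference (0.56), and the helicase subunits MCM7, MCM2, MCM5 and MCM4 differed by 0.31, 0.24, 0.20 and 0.19. UHRF1, which carries DNA methylation through replication, was lower by a difference of -0.40, with -0.06 on its other probe. Of 31 genes of double-strand break repair and checkpoints, 5 were higher, 0 lower and 26 not called, with a median of 0.07 that fell to 0.03 with median centring, and the interval lay inside -0.25 to 0.25 for 23, against 66.6% of all tested genes. XRCC4, a ligation factor, had the highest difference (0.25), and XRCC5 (0.20) lost its call in 14 of 27 alternatives. ATM had -0.15 and -0.11, CHEK1 had 0.31 and 0.33 and PRKDC had -0.58 and -0.65 at 2 and 10 Gy.

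Of 29 mitotic entry and exit genes, 0 were higher, 17 were lower and 12 were not called, with a median log2 ratio of -0.20 at 2 Gy and -0.37 at 10 Gy and a median difference of -0.19. CDC20, the activator of the anaphase-promoting complex, had -0.13 and -0.11 at 2 Gy and -0.52 and -0.48 at 10 Gy. Its difference was -0.38 (SE 0.05, limma adjusted p = 0.000355). ASPM, a spindle pole protein, had -0.40 (-0.26 on its other probe), DLGAP5 had -0.36 and the ubiquitin-conjugating enzyme UBE2C had -0.35. BUB1B, a spindle checkpoint kinase, had a mean of -0.59 at each dose and was flat, with -0.47 and -0.72 on the 2 Gy arrays, and both channels were higher on the 10 Gy arrays, Cy3 by 0.28 and Cy5 by 0.29. CCNB2 (-0.29 and -0.32) was not called. Of 10 mitotic kinesins, 3 were lower, 0 higher and 7 not called, with a median of -0.07 that became -0.04 in Cy5 alone. The 3 were KIF23 (-0.34), KIF20A (-0.33) and CENPE (-0.18). For KIF23, Cy3 was higher by 0.26 and Cy5 differed by -0.08, and KIF11 had -0.45 at 2 Gy and -0.48 at 10 Gy. Centromere and kinetochore proteins held both directions, with 7 of 21 higher, 6 lower and 8 not called and a median of 0.05 that turned to -0.01 with median centring and became 0.12 with the scanner's log ratio and 0.10 in Cy5 alone. CENPA, the histone H3 variant of the centromere, had -0.98 and -0.89 at 2 Gy and -1.42 and -1.47 at 10 Gy (difference -0.51, SE 0.05, limma adjusted p = 9e-05). NDC80 (-0.47, with -0.21 on its other probe) and HJURP (-0.38), which loads CENPA, were lower as well, whereas CENPK (0.49) and ZWINT (0.34) were higher.

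Promoters of mitotic genes are shown because 17 of the 29 entry and exit genes were lower at 10 Gy and 0 were higher. The RefSeq table gave promoters of 300 bases, 250 before and 50 after the start, for 27305 symbols on build GRCh38.p14. The CHR element (TTTGAA) and the CCAAT box (CCAAT) were searched on both strands, with motifs chosen after the values were seen. Of 22 mitotic entry and exit genes with a promoter there, 14 (63.6%) held a CHR element and 19 (86.4%) a CCAAT box. These motifs stood in 15.4% and 35.7% of all promoters and in 10.6% and 36.7% of the promoters of tested genes. Of 10 kinesins, 8 (80.0%) held each of them. Among mitotic genes and kinesins lower at 10 Gy, 7 of 16 promoters held a CHR element, and among those not called 15 of 16 did. A match is a description of the letters in this window. Capitals mark both motifs on either strand, in 2 genes with some of the lower differences, CDC20 (chr1:43358731-43359030, plus strand) and DLGAP5 (chr14:55191536-55191835, minus strand), and in CCNB2 (chr15:59104896-59105195, plus strand), which was not called.
CDC20: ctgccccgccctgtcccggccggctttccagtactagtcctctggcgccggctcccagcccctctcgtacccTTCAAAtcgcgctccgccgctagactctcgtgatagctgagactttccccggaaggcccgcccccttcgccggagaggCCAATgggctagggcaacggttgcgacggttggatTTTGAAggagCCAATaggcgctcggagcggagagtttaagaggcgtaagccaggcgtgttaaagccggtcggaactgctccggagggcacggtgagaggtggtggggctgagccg
DLGAP5: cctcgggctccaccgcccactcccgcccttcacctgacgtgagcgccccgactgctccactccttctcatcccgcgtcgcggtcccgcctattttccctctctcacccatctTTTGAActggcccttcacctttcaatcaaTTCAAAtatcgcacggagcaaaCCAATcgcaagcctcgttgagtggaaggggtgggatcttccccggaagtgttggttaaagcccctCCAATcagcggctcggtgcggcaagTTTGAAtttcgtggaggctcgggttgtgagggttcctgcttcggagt
CCNB2: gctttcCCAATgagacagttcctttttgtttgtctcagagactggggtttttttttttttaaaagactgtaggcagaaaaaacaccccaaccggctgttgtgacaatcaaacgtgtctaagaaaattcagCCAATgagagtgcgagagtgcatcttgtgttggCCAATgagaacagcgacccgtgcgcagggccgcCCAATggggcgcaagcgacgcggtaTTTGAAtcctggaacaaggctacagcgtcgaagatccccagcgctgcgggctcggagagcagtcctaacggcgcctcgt

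Immediate early genes were lower at 10 Gy in 10 of 23 cases (43.5%), higher in 3 (13%) and not called in 10, against 11.1% lower and 9.81% higher of all tested genes. Their median difference was -0.12, which became -0.21 with median centring and -0.17 in Cy5 alone. EGR1, a zinc finger transcription factor, had the lowest difference of all tested genes. It had 1.16 and 1.14 at 2 Gy and -0.20 and -0.26 at 10 Gy, so that it lay above untreated cells at the lower dose and below them at the higher. The difference was -1.38 (SE 0.05, limma adjusted p = 6.54e-07), with -1.34 in Cy5 and 0.04 in Cy3. FOS, a subunit of AP-1, was below untreated cells at both doses, with -0.84 and -0.89 at 2 Gy and -1.55 and -1.61 at 10 Gy. IER2 fell from 0.93 to 0.24, FOSB from 0.24 to -0.30 and JUNB from 0.54 to 0.02, with a difference of -0.03 on its other probe. CCN1, a secreted matrix protein, differed by -0.59 and SRF, serum response factor itself, by -0.43, with -0.57 to 0.04 on its other probes. JUN (0.33), KLF4 (0.35) and ATF3 (0.19, with -0.05 on its other probe) were higher at 10 Gy. EGR2 (0.58 at each dose) was flat. Of 11 MAPK feedback genes, 1 (9.09%) was higher (SPRED1, 0.30, with 0.01 on its other probe), 1 (9.09%) lower (the ERK phosphatase DUSP6, -0.34) and 9 not called. These shares were near those of all tested genes. The median of the list, 0.04, turned to -0.06 with median centring and to -0.0039 in Cy5 alone.

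EGR1 and SRF share a feature of their promoters, shown here because both genes were lower at 10 Gy. The CArG box was searched by its usual consensus on both strands, again from 250 bases before to 50 after the start. A box farther upstream, or one that departs from the consensus, is not counted. It stood in 1.29% of all promoters, in 1.17% of those of tested genes and in 2 of 18 promoters of immediate early genes (11.1%). These 2 were EGR1 (chr5:138465229-138465528, plus strand) and SRF (chr6:43171019-43171318, plus strand). Each held 2 matches, marked by capitals.
EGR1: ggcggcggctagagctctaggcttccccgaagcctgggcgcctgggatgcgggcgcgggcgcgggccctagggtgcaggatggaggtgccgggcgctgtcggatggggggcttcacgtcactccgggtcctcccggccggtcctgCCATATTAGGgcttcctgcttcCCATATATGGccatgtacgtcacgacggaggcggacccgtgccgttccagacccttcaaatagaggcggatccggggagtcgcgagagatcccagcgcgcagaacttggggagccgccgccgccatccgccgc
SRF: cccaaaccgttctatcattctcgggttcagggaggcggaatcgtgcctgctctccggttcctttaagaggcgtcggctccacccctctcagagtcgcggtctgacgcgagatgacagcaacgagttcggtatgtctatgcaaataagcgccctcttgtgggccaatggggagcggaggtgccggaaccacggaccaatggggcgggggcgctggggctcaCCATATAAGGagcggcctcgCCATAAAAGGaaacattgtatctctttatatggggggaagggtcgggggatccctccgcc

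The other genes with low differences came from several processes. SRSF6, a splicing factor, had 0.84 and 0.76 at 2 Gy and -0.21 and -0.27 at 10 Gy, a difference of -1.04 (SE 0.05, limma adjusted p = 3.3e-06), and -0.54 on its other probe. HES1, a repressor induced by Notch, had 0.30 and 0.30 against -0.57 and -0.58, and its other probes gave differences of -1.08 and -0.19. Like EGR1, both genes turned from above to below untreated cells. KPNB1, the nuclear import receptor importin beta, stayed above untreated cells but went from 1.25 to 0.45, with a difference of -0.27 on its other probe. ALYREF, an mRNA export adaptor, went from 1.07 to 0.35, and SEC22B, a SNARE of the early secretory pathway, from 0.81 to 0.02. ADCY8, an adenylate cyclase, had a difference of -0.78, CDC27, a subunit of the anaphase-promoting complex, -0.71 and SIPA1L3 -0.69. Probes disagreed for ZBTB20, a zinc finger repressor, with -0.76 on the probe that stands for it and 0.19 on the other, and for the desaturase SCD, with -0.74 against -0.13 and 0.00. Opposite signs at the doses, with an adjusted p under 0.05 against untreated cells at each and a difference of at least 0.25, were found for 352 genes. Of these, 200 were above untreated cells at 2 Gy and 152 were below.

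Genes changed at both doses were taken as those with a log2 ratio of at least 0.58 in size, the same sign and an adjusted p under 0.05 at each dose. There were 560, of which 453 were raised and 107 lowered. No array of PT alone had the dyes swapped, so the part of the dye in these log2 ratios was not tested. A gene was called flat when the 95% interval of its difference lay inside -0.25 to 0.25, which held for 288 of the 560 (51.4%, or 1.33% of all tested genes), 232 raised and 56 lowered. Another 172 differed by at least 0.25, with the larger change at 10 Gy in 158 and at 2 Gy in 14, and 100 met neither limit. GC-rich probes (at least 60% GC) measured 104 of the 172 and 27 of the 288. The limit of 0.58 and the interval depend on scaling, since median centring gave 1435 flat genes, 133 of them among the 288, and the scanner's log ratio gave 290 (165 raised and 125 lowered), 162 of them among the 288.

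**Figure D3:**
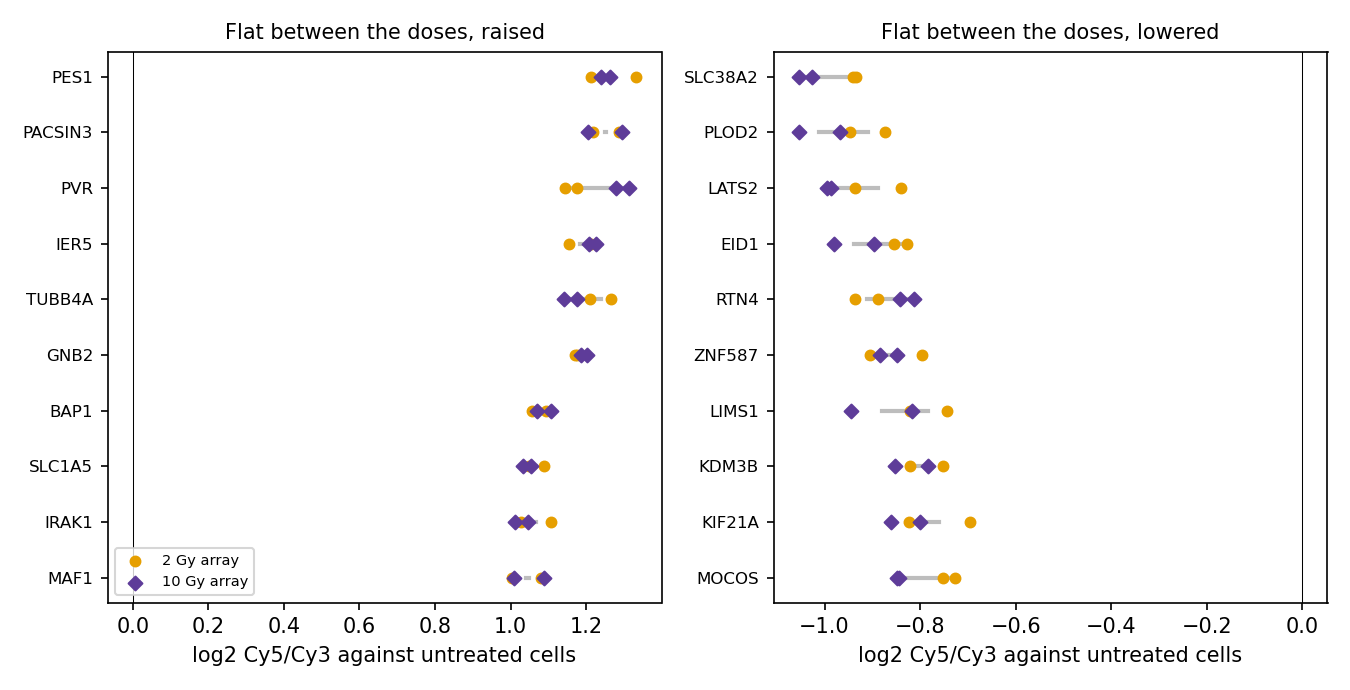
Log2 ratio on each array of the 10 raised and the 10 lowered flat genes with the largest mean change among those on probes under 60% GC, with an official symbol and well above background in both channels (circles 2 Gy, diamonds 10 Gy, a grey bar between the means). Raised genes lie between 1.00 and 1.33 on every array and lowered genes between -1.05 and -0.70.

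Flat genes on probes under 60% GC with the largest rise had log2 ratios above 1 at both doses. PES1, a ribosome biogenesis factor, had 1.21 and 1.33 at 2 Gy and 1.26 and 1.24 at 10 Gy, with a difference of -0.02 and an interval from -0.15 to 0.11. BAP1, a nuclear deubiquitinase and tumor suppressor, had 1.09 and 1.06 against 1.11 and 1.07 (interval -0.09 to 0.11). GNB2, a G protein beta subunit, had 1.17 and 1.18 against 1.20 and 1.19 (interval -0.08 to 0.12). The arrays of the doses overlapped or nearly touched for these genes. PVR, the adhesion molecule CD155, had 1.16 at 2 Gy and 1.30 at 10 Gy, with an interval from 0.03 to 0.24 that excludes 0 and a difference of 0.0016 on its other probe, and gained a call in 6 of 27 alternatives. SLC1A5, a glutamine transporter, had 1.07 and 1.04, IRAK1, a kinase of Toll-like receptor signaling, had 1.07 and 1.03, and MAF1, a repressor of RNA polymerase III, had 1.04 and 1.05. PACSIN3 (1.25 and 1.25) and TUBB4A (1.24 and 1.16) complete the 10 with IER5, an immediate early gene that had 1.18 and 1.22 but a difference of 0.56 on its other probe. Lowered flat genes included PLOD2, a collagen lysyl hydroxylase, with -0.95 and -0.87 at 2 Gy and -1.05 and -0.97 at 10 Gy. The Hippo kinase LATS2 had -0.89 and -0.99, RTN4, an inhibitor of neurite growth, had -0.91 and -0.83, and the histone demethylase KDM3B had -0.79 and -0.82. SLC38A2, an amino acid transporter, had -0.94 and -1.04, and 0.37 for the difference on its other probe. EID1 (-0.84 and -0.94), ZNF587 (-0.85 and -0.87), LIMS1 (-0.78 and -0.88), KIF21A (-0.76 and -0.83) and MOCOS (-0.74 and -0.85) were the others. MOCOS too had an interval that excludes 0 (-0.20 to -0.01) and gained a call in 6 of 27 alternatives, and SLC38A2 gained one in 4 of 27.

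On GC-rich probes, 1091 genes were tested, of which 16.0% were higher and 5.41% lower at 10 Gy. HES7, a repressor of the segmentation clock, had 1.98 and 1.95 at 2 Gy and 2.58 and 2.70 at 10 Gy (difference 0.68). ZSCAN10, a zinc finger protein of stem cells, had 0.31 and 0.94 against 1.22 and 1.61, so that the arrays of a dose lay nearly as far apart as the doses (difference 0.79), and Cy3 was higher by 0.58 and Cy5 by 1.36 on the 10 Gy arrays. The probe of SPPL2B, an intramembrane protease, gave 0.67, while its probe under 60% GC gave -0.01. ANGPTL4, a lipase inhibitor (-0.39), and TRIM47 (-0.30) were among the lowest. In the lower bins of GC content, 11%, 9.66% and 6.67% of the genes were higher and 13.7%, 12% and 6.32% were lower, from under 40% to under 60% GC.

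The same contrast was tested in each channel by itself. Untreated RNA stood in Cy3 at both doses, and limma called 0 of 21699 genes there (0%), with 440 at an unadjusted p under 0.05. In Cy5, the irradiated RNA, it called 133 genes (0.613%), 65 higher and 68 lower, with 4699 at an unadjusted p under 0.05. These counts moved when an array was left out, to between 0 and 994 in Cy3, where 994 and 243 genes were called without an array of 2 Gy, and to between 0 and 1672 in Cy5. The SD of the difference over genes was 0.115 in Cy3 and 0.183 in Cy5. For the 2030 genes with a difference of at least 0.25, the median size was 0.324, with a median part of 0.337 in Cy5 and of -0.00138 in Cy3, and Cy3 made up at least 50% of the difference for 131 of them.

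**Figure D4:**
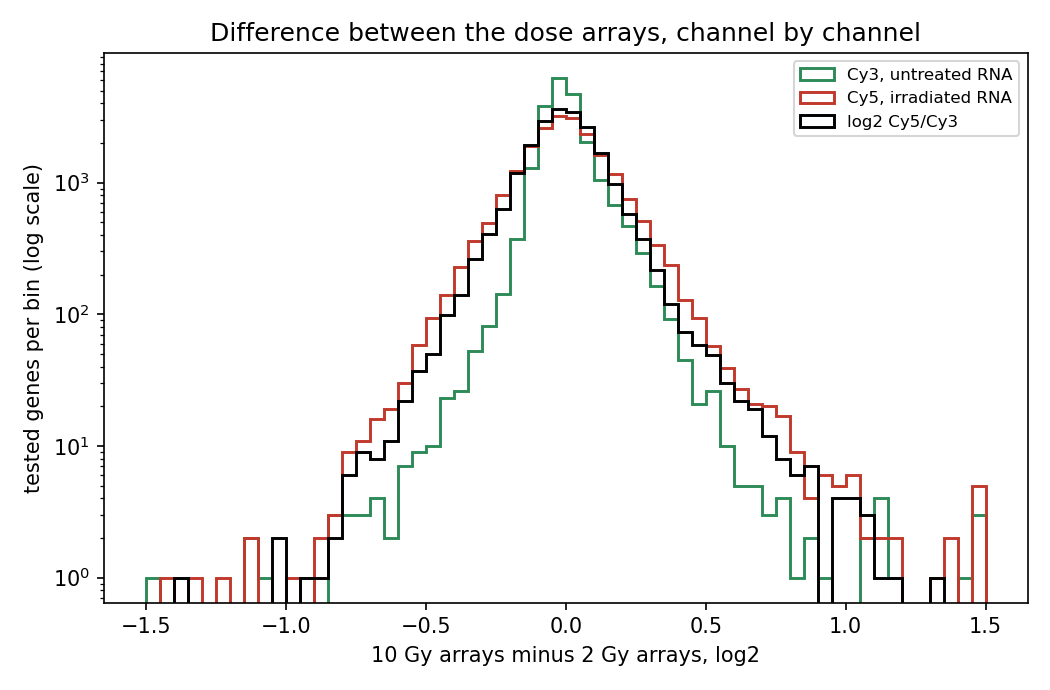
Number of tested genes (log scale) by the difference between the 10 Gy and 2 Gy arrays in Cy3, in Cy5 and in their log2 ratio, with values beyond 1.5 in size placed in the outermost bins. The distribution of Cy3 is the narrowest, with an SD of 0.115 against 0.183 in Cy5.

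Metabolic and stress genes had mixed answers to dose. Their counts stand beside the 9.81% higher and 11.1% lower of all tested genes. Of 22 ATF4 and unfolded protein response genes, 11 were higher, 4 lower and 7 not called, with a median of 0.16 that fell to 0.04 with median centring. CHAC1, which degrades glutathione, went from -0.38 to 0.26 and DDIT3, the transcription factor CHOP, from 0.33 to 0.72. The endoplasmic reticulum proteins HSPA5 (-0.33), HSP90B1 (-0.28) and PDIA4 (-0.24) were lower, whereas the co-chaperone DNAJB9 was higher (0.23). For HSPA5, Cy3 was higher by 0.29 and Cy5 differed by -0.04. Of 30 glycolysis and hypoxia genes, 11 were higher, 4 lower and 15 not called, with a median of 0.10 that fell to 0.0081 with median centring and to 0.06 with the scanner's log ratio. The enzymes PGAM1 (0.43), PGK1 (0.35, with 0.11 to 0.14 on its other probes), ALDOA (0.32) and LDHA (0.26, with -0.10 to 0.28) were among the higher, the glucose transporter SLC2A1 (-0.22) among the lower, and CA9 and PFKL were flat, CA9 with an interval that excludes 0 (0.02 to 0.24) and PFKL with 0.27 on its other probe. Of 31 respiratory chain genes, 9 were higher, 2 lower and 20 not called, with a median of 0.07 that turned to -0.05 with median centring. COX6C (0.37), NDUFS8 (0.33) and COX8A (0.32) led them. Of 23 cholesterol and fatty acid synthesis genes, 2 were higher, 5 lower and 16 not called, with a median of -0.05 that became -0.11 with median centring and -0.09 in Cy5 alone. HMGCS1 had a difference of -0.36 but 0.14 on its other probe, and SQLE, the squalene epoxidase, had -0.31. Of 18 NRF2 antioxidant genes, 3 were higher, 5 lower and 10 not called, with a median of -0.02 that turned to 0.02 with the scanner's log ratio and to 0.01 in Cy5 alone and became -0.12 with median centring. The ferritin chains FTH1 (-0.59, with -0.53 to -0.36 on its other probes) and FTL (-0.51, with -0.25) and the reductase TXNRD1 (-0.49) were lower, and AKR1B10 was higher (0.49). For FTH1, Cy3 was higher by 0.21 and Cy5 differed by -0.38. SLC7A11, the cystine carrier on both the ATF4 and the NRF2 list, had 0.49, but its other probes lay between -0.14 and 0.03.

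Of 14 heat shock chaperones, 2 (14.3%) were higher (HSPB8 and BAG3, 0.31 and 0.30, the latter with -0.09 on its other probe). Another 3 (21.4%) were lower (HSPH1, the lowest, -0.33) and 9 not called, against 9.81% higher and 11.1% lower of all tested genes. The median of the list, -0.03, became -0.05 with median centring, and HSPB8 lost its call in 14 of 27 alternatives. Metallothioneins were higher in 3 of 11 cases (27.3%), lower in 0 and not called in 8. Their median of 0.10 turned to -0.04 with median centring and fell to 0.03 in Cy5 alone. MT1M had the highest difference (0.37), with Cy5 higher by 0.22 and Cy3 differing by -0.145. The calls of the other 2 were lost in most alternatives, MT2A (0.20, with 0.02 on its other probe and 0.04 in Cy5 alone) in 16 of 27 and MT1A (0.17) in 17 of 27. Cytosolic ribosomal proteins were higher in 7 of 36 cases, lower in 4 and not called in 25, with a median of 0.04 that turned to -0.09 with median centring. RPL6 (0.46, with 0.30 on its other probe) and RPS13 (0.44, with 0.10 to 0.13 on its other probes) stood at the upper end and RPS23 (-0.42) at the lower. The BCL2 family, which shares BBC3 and BAX with the damage response lists, had 5 of 19 higher, 2 lower and 12 not called, with a median of 0.03 that became 0.07 with the scanner's log ratio. BCL2L1, which protects from apoptosis, was higher (0.31) and BMF, which promotes it, was lower (-0.35), while MCL1 had -0.05 at each dose and differences of -0.31 to 0.11 on its other probes.

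**Figure D5:**
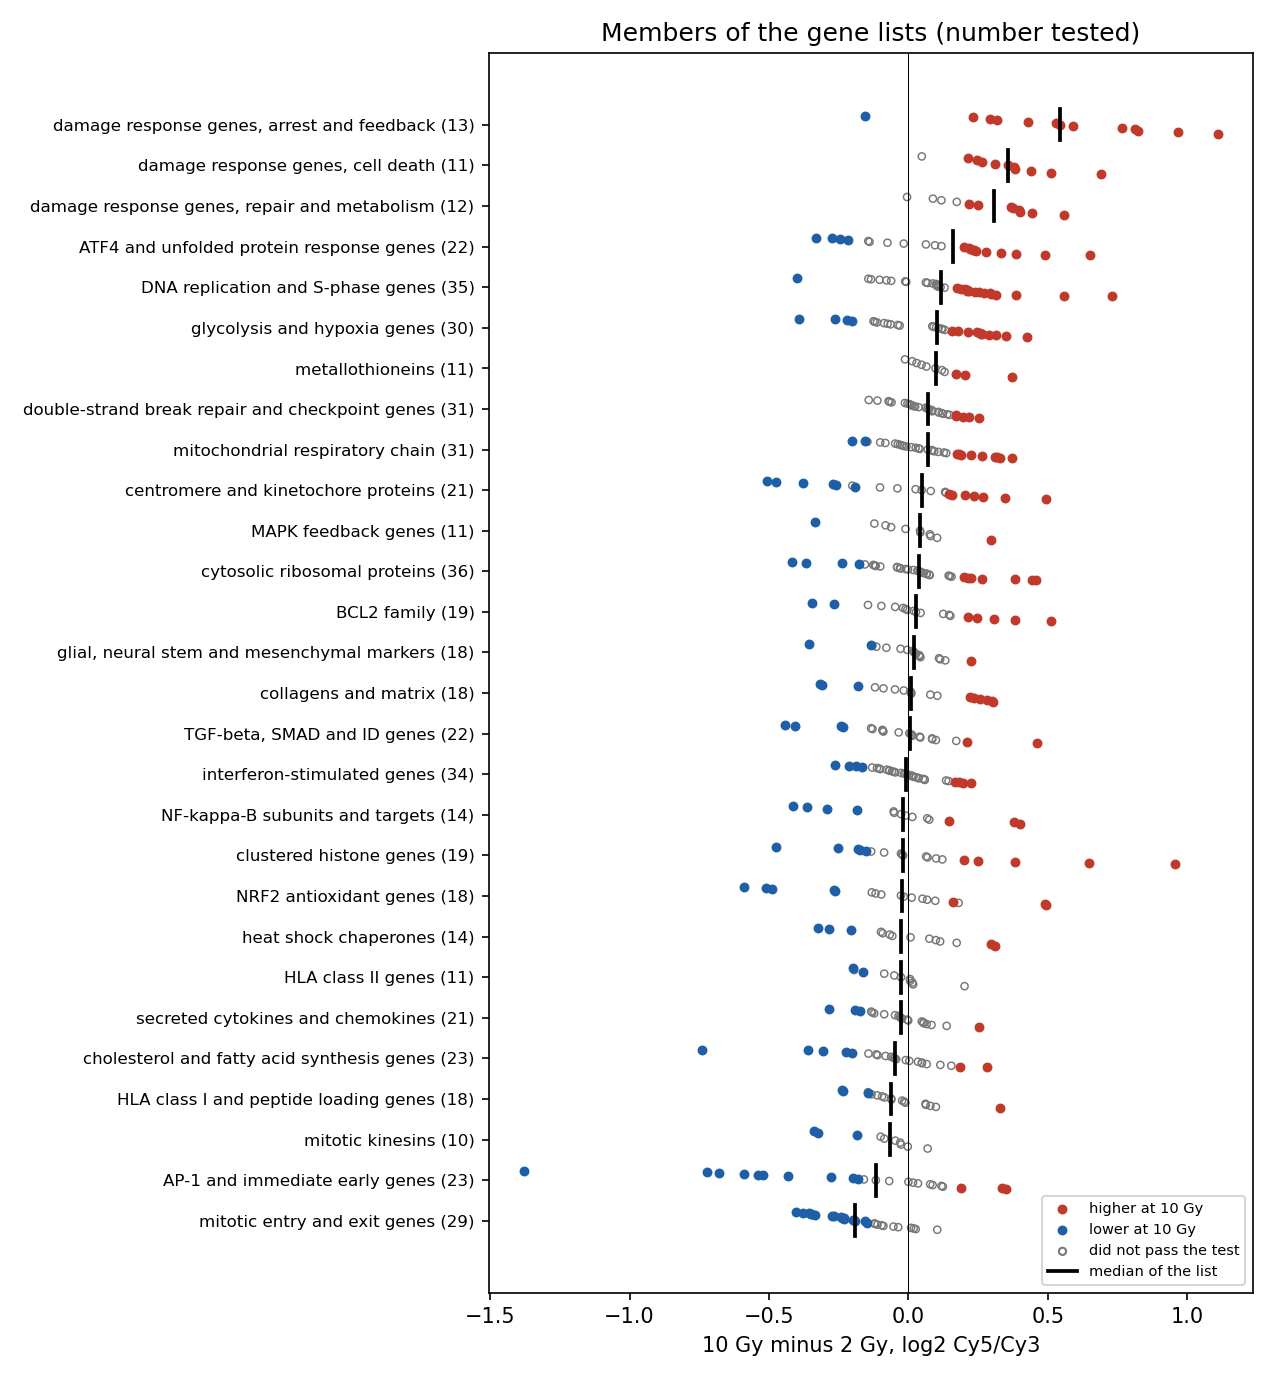
Difference between 10 and 2 Gy in log2 ratio of each tested member of the gene lists, ordered by the median (black bar), with the number tested in parentheses. Filled points passed the test at an adjusted p under 0.05 in limma, red higher and blue lower at 10 Gy. The 3 lists of damage response genes have medians of 0.54, 0.36 and 0.31 and mitotic entry and exit genes have -0.19.

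Of 34 interferon-stimulated genes, 4 (11.8%) were higher, 4 (11.8%) lower and 26 not called, near the 9.81% higher and 11.1% lower of all tested genes. Their median of -0.01 turned to 0.01 in Cy5 alone and became -0.03 with the scanner's log ratio and with median centring. The interval lay inside -0.25 to 0.25 for 24 of them, against 66.6% of all tested genes. ISG15 had 0.00 and 0.01 and MX1 had 0.13 and 0.16 at 2 and 10 Gy. SAMD9 had the lowest difference (-0.26, with -0.14 to -0.03 on its other probes) and USP18, which removes ISG15 from proteins, the highest (0.22). Of 18 HLA class I and peptide loading genes, 1 (5.56%) was higher (the peptidase ERAP2, 0.33, with 0.09 on its other probe), 3 (16.7%) were lower and 14 not called. Their median of -0.06 became -0.16 with median centring and -0.03 with the scanner's log ratio. HLA-B, on a GC-rich probe (-0.24, and -0.16 on the other), PSMB9 (-0.23) and B2M (-0.14) were the lower ones, and for B2M Cy3 was higher by 0.12 and Cy5 differed by -0.03. PSMB9 lost its call in 11 of 27 alternatives. Of 11 HLA class II genes, 2 (18.2%) were lower (HLA-DOA and HLA-DRA), 0 higher and 9 not called, with a median of -0.03 that became -0.13 with median centring. HLA-DOA lost its call in 11 of 27 alternatives, HLA-DMA and HLA-DQA1 gained one in 10 and 9 of 27, and for HLA-DRA Cy3 was higher by 0.16 and Cy5 differed by -0.0077. Secreted cytokines and chemokines had 1 of 21 higher (4.76%), 3 lower (14.3%) and 17 not called. Their median of -0.03 became -0.05 with the scanner's log ratio and with median centring, and IGFBP7 lost its call in 12 of 27 alternatives. CXCL1 was lower (-0.28, a call lost in 10 of 27 alternatives), CXCL2 higher (0.25, with -0.01 on its other probe), and IL6 (-0.71 and -0.62) was flat. Of 14 NF-kappa-B subunits and targets, 3 (21.4%) were higher, 4 (28.6%) lower and 7 not called, with a median of -0.02 that turned to 0.01 in Cy5 alone. The inhibitors NFKBIE (0.40) and NFKBIB (0.38, with 0.05 to 0.39 on its other probes) were higher and SOD2 (-0.42) and RELB (-0.36) lower.

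Of 22 TGF-beta, SMAD and ID genes, 2 (9.09%) were higher, 4 (18.2%) lower and 16 not called, against 9.81% and 11.1% of all tested genes. Their median of 0.01 turned to -0.04 with median centring and also in Cy5 alone, and to -0.02 with the scanner's log ratio. INHBA, the activin subunit, had 0.46, and the inhibitors of differentiation ID1 (-0.44), ID4 (-0.41) and ID3 (-0.23) were lower. Collagens and matrix genes had 6 of 18 higher, 3 lower and 9 not called, with a median of 0.01 that turned to -0.01 with median centring. The chains of collagen I went apart, COL1A2 with 0.30 (-0.19 on its other probe) and COL1A1 with -0.31, and tenascin C (TNC) was lower (-0.32). Of 18 glial, neural stem and mesenchymal markers, 1 (5.56%) was higher (LGALS1, 0.22), 2 (11.1%) were lower (TWIST1, -0.36, and CD44, -0.14) and 15 not called. Their median of 0.02 turned to -0.09 with median centring. CD44 lost its call in 16 of 27 alternatives and LGALS1 in 13 of 27. VIM had -0.36 at each dose.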

How the data were processed

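The authors deposited 24 tables of the scanner software Agilent Feature Extraction 9.5.3.1, per the file headers with mean signal and local background of each of 45015 spots as intensity and a log10 ratio of red to green; in units these columns are other than counts, per the file headers. The series matrix deposited beside them holds that log10 ratio rounded (largest difference 0.00500). Probe positions follow hg17. Members and lists were chosen with earlier results of these data known. Spots marked as feature or background outliers were left out. Mean signals were corrected with normexp (offset 50) on all remaining spots, and log2 ratios were normalized by loess within each scan with controls at weight 0. Spots of a probe and scans of an array were averaged. A probe was kept (30418 of 41000) if 2/3 or more of the arrays of any configuration had it well above background in Cy3 or Cy5, and 28276 of these had a value on all 8 arrays. Of the 41000 probes, 23434 were named by accession, 2317 by symbol, 1040 by synonym and 14209 by the name on the array. The brightest probe stood for its gene, which gave 21699 genes of 30992 names, 13904 with an official symbol. All 8 arrays were fitted in limma 3.58.1 (R 4.3.3, the package data.table, version 1.17.8, statmod 1.5.0), with Benjamini-Hochberg adjustment over genes. Channels were compared on the 4 arrays of PT alone. The fit was tested on simulated data.

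Named were the 12 highest and 12 lowest differences on probes under 60% GC and the 3 highest and 3 lowest on other probes, each for genes with an official symbol, well above background in both channels and without overlap between the doses. Further named were the 10 flat genes with the largest change in each direction, on probes under 60% GC, with an official symbol and well above background in both channels (173 of 232 raised and 42 of 56 lowered), the 5 largest differences with opposite signs, the 3 largest in each list, and CDKN1A, MDM2, FOS and CENPA. Some genes that this rule names are not reported here. Other names, and the promoter motifs, were chosen after their values were seen. Alternatives were other background corrections, the scanner's log ratio, the series matrix, median centring, scaling between arrays, Cy5 alone, other filters, other uses of scans, arrays left out, the replicate number as a block, all probes or their mean, GC content, an unadjusted p and, added after the data were seen, the scan passes.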

Additional observations from a re-analysis of the deposited data

Results flagged for a closer look

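The 5 largest differences among genes whose log2 ratio against untreated cells had opposite signs at the doses were flagged because the difference between the groups passed its own test in limma. EGR1 differed by -1.38, TAF15 by 1.31, SRSF6 by -1.04, H4C3 by 0.96 and HES1 by -0.87, each with both arrays of a dose on the same side of 0.

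The 2 scans left out of the main comparison because label and array disagree were set against the dose means on 194 genes, those with a value in the scan among the 100 highest and 100 lowest differences with an official symbol. These genes were chosen by the dose difference itself, and the means include other scans of the same arrays. The counts below therefore describe the 2 scans and do not test their labels. In the scan labelled U87 2 Gy replicate 5, 194 of the 194 genes lay nearer the mean at 10 Gy, with CDKN1A at 1.19 and EGR1 at -0.20. In the scan labelled U87 10 Gy replicate 2, 194 of the 194 lay nearer the mean at 2 Gy, with CDKN1A at 0.36 and EGR1 at 1.12.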

How the results depend on the processing

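The precision is limited by 2 arrays for each dose on 1 slide, by signal near background for over 30% of the probes in Cy3, and by the lack of a dye swap. For results without a remark here, the count stayed within 1.5 times its value under every alternative that gave one.

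The count of differing genes (4531) became 140 with Cy5 intensity alone, 0 with the disputed scans kept under their labels (322 unadjusted in limma), 2113 without both arrays that hold such a scan (1 array left for each dose, spread from the arrays with Si306), and 7164 at an unadjusted p. With each array left out in turn it was 2490 to 3804, where limma assumes that the lone array varies like the other groups. The count of differences of at least 0.25 (2030) became 3057 with median centring, 140 with Cy5 alone, 0 with the disputed scans kept (37 unadjusted), and 741 with each scan, disputed ones too, as a sample by its label, where all differing genes numbered 5364. Adding the replicate number as a block to that fit gave 740 and 5310. Deviations from the means by label correlated over 0.1 only for replicates 2 and 5, each of which holds a disputed scan. Since these means include the disputed scans, the correlations do not show whether replicate numbers pair the scans. Arrays left out gave 1898 to 2366. The count of flat genes (288) became 1435 with median centring and 206 to 258 with arrays left out, and Cy5 alone gives no such count. In Cy3 (0 genes), arrays left out gave 0 to 994, with 994 and 243 without an array of 2 Gy. In Cy5 (133 genes) they gave 0 to 1672, without the 2 Gy arrays 1672 and 316 and without each 10 Gy array 0 (2435 and 2185 unadjusted), and quantile normalization without loess gave 0 (4392 unadjusted). Scan passes were chosen after the data were seen: pass 1 alone, with 1 array left for each dose, gave 263 differing genes, 263 of at least 0.25 and 168 flat genes, pass 3 gave 2746 differing genes, and repeat scans entered as separate samples, with the pass as a block, gave 9531. All 104 named genes with a call lost it with the disputed scans kept, and 69 lost it with pass 1 alone. With Cy5 alone 77 lost it, and so did KRT8, which is counted apart because its difference reversed. The difference of KRT8 reversed to 0.093 with Cy5 alone and that of SPPL2B to -0.014 without GC-rich probes, where another probe stands for the gene. The cause of these changes was not tested.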
